A study of Mus musculus with 8 samples.

Results

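The aortic transcriptome of mice sampled 2 weeks after the end of an angiotensin II infusion (AngII+2W) was compared with that of mice sampled at the end of the infusion (AngII). The comparison holds the 4 libraries that the labels place in these groups, 2 in AngII and 2 in AngII+2W, out of 8 libraries in the whole series. Each library was made from pooled aortic tissue of 2 mice, so that the 8 libraries stand for 16 animals. All mice were male and of the C57BL6 strain. The infused mice were 11 weeks old when the minipump was implanted. AngII mice received angiotensin II at 2.8 mg/kg/day for 2 weeks, and AngII+2W mice received the same infusion and then no infusion for 2 weeks. CTRL mice (2 libraries) were untreated littermates and AngII+3W mice (2 libraries) were sampled 3 weeks after the infusion. These groups enter the fit, and CTRL is given beside the comparison. The study describes its controls as age-matched and sampled at each of its time points. The labels do not say which of these times the CTRL libraries stand for. Age and time since the infusion differ together between AngII and AngII+2W, and the 2 cannot be told apart here.

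Angiotensin II is the effector peptide of the renin-angiotensin system. In the arterial wall it acts through its type 1 receptor to constrict smooth muscle, and sustained exposure raises blood pressure and is known for matrix deposition, leukocyte entry, cell growth and loss of the contractile program of smooth muscle cells. That program depends on the transcription factor SRF and its cofactor myocardin, which act at CArG boxes in the promoters of contractile genes. Whether and how far each of these groups of transcripts moved back once the infusion had stopped is the question that the comparison of AngII+2W with AngII addresses.

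The libraries held between 18130441 and 21498200 counts, and a floor of 3 counts corresponded to 0.14 to 0.165 CPM (counts scaled to a common library size, normalized by TMM). Mitochondrially encoded genes held 8.15% to 18.3% of the counts. Of 35896 genes in the table, 17182 passed the filter on low counts and were tested with edgeR's quasi-likelihood test, in a fit of all 8 libraries with 1 coefficient for each group and Benjamini-Hochberg adjustment (FDR). The tissue held the markers of an aortic wall, as the sum of 10 smooth muscle markers was 1936 and 2375 CPM in AngII, then 4352 and 3979 CPM in AngII+2W, and 10450 and 8116 CPM in CTRL. The sum of 14 endothelial markers lay between 1637 and 2077 CPM in these 6 libraries. Replicate 1 of AngII+3W had 3355 CPM on skeletal muscle markers, against at most 156 CPM in the other libraries. It enters the comparison through the shared filter, normalization and estimate of spread. Beyond these markers, its levels are given only for Dbh, Syt1 and the cardiac markers. In whole tissue, fewer cells of a type and less RNA per cell cannot be told apart.

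At an FDR below 0.05, 28 genes differed between AngII+2W and AngII. Of these, 24 fell (0.14% of the genes tested) and 4 rose (0.0233%), and the smallest FDR was 0.0136. At an FDR below 0.1 there were 236 lower genes (1.37%) and 129 higher genes (0.751%), and an unadjusted p below 0.05 was found for 1452 lower genes (8.45%) and 1129 higher genes (6.57%). The 2 libraries of each group did not overlap in 4723 genes with lower levels in AngII+2W (27.5%) and in 4598 genes with higher levels (26.8%). The median log2 fold change over all genes tested was -0.00273, and 49.6% of the genes were higher in AngII+2W. The number of genes that passed depended on the libraries in the fit. It was 0 when any of the 4 AngII or AngII+2W libraries was left out, where 1169 to 1987 genes had an unadjusted p below 0.05, and 1 without either CTRL library. It was 262 and 261 without replicate 1 or replicate 2 of AngII+3W, and DESeq2 called 685 genes, all 28 among them.

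**Figure D1:**
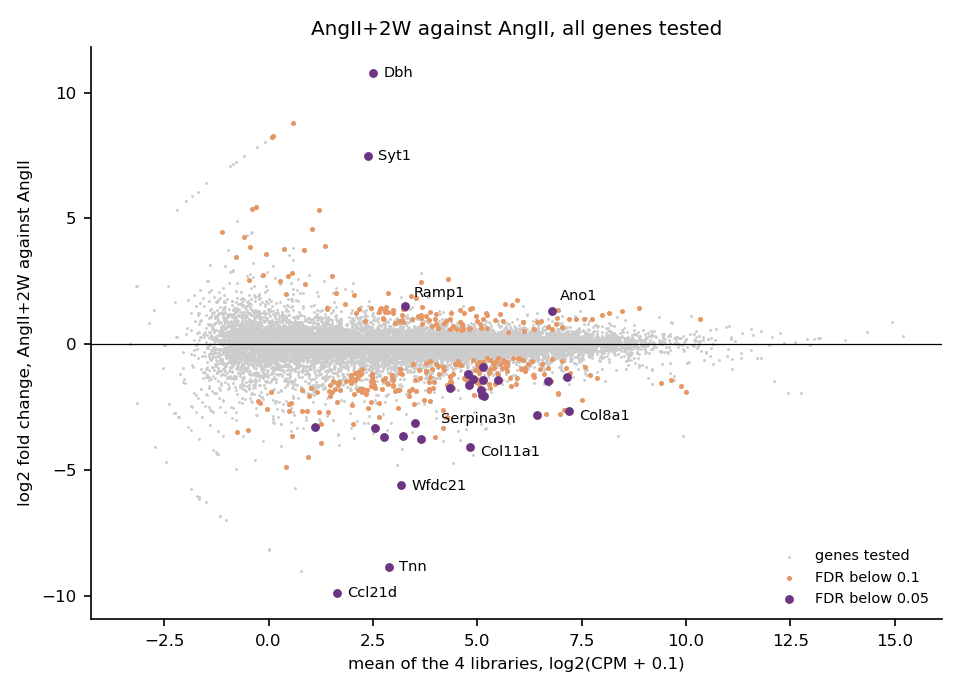
Each point is 1 of the 17182 genes tested, with the mean level of the 4 AngII and AngII+2W libraries on the x axis (log2 of CPM + 0.1) and the log2 fold change of AngII+2W against AngII on the y axis. Purple points mark the 28 genes past an FDR of 0.05, 24 below and 4 above the line at 0, orange points those between 0.05 and 0.1. The fitted values of Dbh, Syt1, Tnn and Ccl21d rest on a group at or near 0 counts and have no fixed size.

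Of the 24 genes that fell, 21 were higher in AngII than in CTRL at an FDR below 0.05, and of the 4 that rose, 2 (Ramp1 and Ano1) were lower in AngII than in CTRL. Both comparisons use the AngII libraries, so that opposite signs are no separate evidence. In the comparison of AngII with CTRL, 499 of all genes tested were higher (2.9%) and 378 were lower (2.2%). The other 5 genes, Dbh, Syt1, Ccl21d, Hist1h2br and Tmem120a, did not pass in AngII against CTRL.

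**Figure D2:**
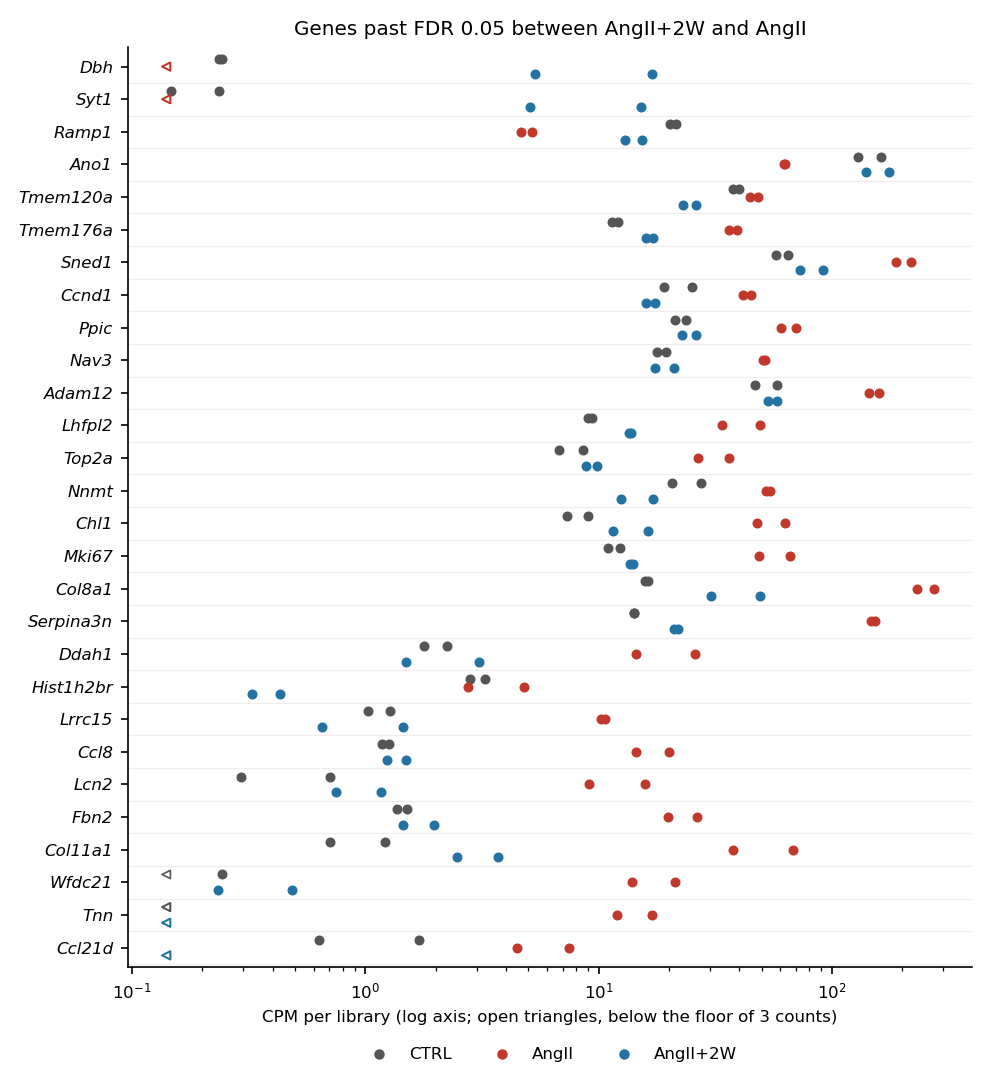
The 28 genes past an FDR of 0.05 are ordered by log2 fold change, with CPM on a log axis and 1 point for each CTRL, AngII and AngII+2W library. Open triangles are libraries below the floor of 3 counts. In all 28 genes the AngII+2W libraries lie outside the range of the AngII libraries, and in genes such as Adam12, Fbn2, Nav3 and Ano1 they lie close to or among the CTRL libraries.

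Serpina3n, an extracellular inhibitor of serine proteases that belongs to the acute-phase response, shared the smallest FDR with Tnn. The Serpina3n gene spans bases 104406729 to 104414329 of chromosome 12 (GRCm38, forward strand). Its level was 153 and 147 CPM in AngII and 22 and 21 CPM in AngII+2W, against 14.1 and 14.2 CPM in CTRL. The 2 groups did not overlap, and the AngII+2W libraries remained above both CTRL libraries. The log2 fold change of AngII+2W against AngII was -2.80 (standard error 0.21, FDR = 0.0136), a 6.96-fold lower level. Lcn2, which encodes the siderophore-binding protein lipocalin 2, had 15.8 and 9.1 CPM in AngII and 1.17 and 0.752 CPM in AngII+2W (log2 fold change -3.68, standard error 0.468, FDR = 0.0476). Wfdc21, a small secreted protein of the whey acidic protein family, had 21.2 and 13.9 CPM in AngII and 0.233 and 0.483 CPM in AngII+2W (log2 fold change -5.61, standard error 0.51, FDR = 0.029). In both genes every AngII library was above every AngII+2W library, and the CTRL libraries had less than 1 CPM.

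Of the 29 acute-phase genes tested, 2 fell at an FDR below 0.05 (Serpina3n and Lcn2) and 0 rose, and 8 had an FDR below 0.1, all lower. As a list they had a median log2 fold change that was -0.547 in AngII+2W against AngII, 0.854 in AngII against CTRL and 0.185 in AngII+2W against CTRL. Ptx3, the long pentraxin, had 3.13 and 5.12 CPM in AngII and 0.467 and 0.43 CPM in AngII+2W, and Timp1, an inhibitor of metalloproteinases, had 20.8 and 41.4 CPM and then 5.93 and 4.08 CPM. Their FDR values of 0.0576 and 0.0655 did not pass 0.05. For the 26 genes of the complement list the median log2 fold change was -1.06, and 23 of the 26 were lower in the fit. In this list 0 genes passed an FDR of 0.05 and 5 were below 0.1, all lower. The 5 were C4b, C1qtnf6, Cfb, C1qtnf3 and C3ar1, of which C1qtnf6 and C1qtnf3 encode C1q-related proteins rather than complement components. C4b, a component of the classical pathway, had 1082 and 940 CPM in AngII and 357 and 339 CPM in AngII+2W, within the range of 286 to 434 CPM in CTRL (log2 fold change -1.54, standard error 0.224, FDR = 0.0598). Cfb, the protease of the alternative pathway, had 147 and 164 CPM in AngII and 68.9 and 45.3 CPM in AngII+2W (FDR = 0.0655).

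Chemokines draw leukocytes into tissue, and Ccl8, which attracts monocytes and T cells, fell from 14.5 and 19.9 CPM in AngII to 1.49 and 1.24 CPM in AngII+2W. Its level in CTRL was 1.27 and 1.18 CPM, so that one AngII+2W library lay within the CTRL range and the other slightly above it. The log2 fold change was -3.65 (standard error 0.381, FDR = 0.029). Among 41 chemokine and chemokine receptor genes tested, Ccl8 was the 1 gene that fell and 0 rose, and 7 had an FDR below 0.1, all lower. Ccl21d, a chemokine gene that also fell, was not in this list and is described with its near-identical copies further on. Cxcl12, the ligand of Cxcr4, had 251 and 250 CPM in AngII and 142 and 126 CPM in AngII+2W (FDR = 0.0569). The median of the list was -0.726, against 0.705 in AngII against CTRL and 0.102 in AngII+2W against CTRL.

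Macrophage markers were lower in AngII+2W as a list. The sum of the 16 markers was 943 and 1528 CPM in AngII, then 649 and 615 CPM in AngII+2W, and 598 and 416 CPM in CTRL. Both AngII libraries lay above the libraries of the other groups, and none of the 16 markers passed an FDR of 0.05. The median log2 fold change was -1.23, and 3 markers (Ms4a7, Cd68 and Fcgr1) had an FDR below 0.1. Cd68, a lysosomal glycoprotein of macrophages, had 15.2 and 29.2 CPM in AngII and 6.81 and 6.07 CPM in AngII+2W (FDR = 0.0806), and Ms4a7 had 15.6 and 29.4 CPM and then 6.3 and 6.12 CPM (FDR = 0.0655). In each of these genes the second AngII library was the higher one. The part of macrophage RNA in the changes of complement and chemokine genes was not tested. Of the 11 MHC class II genes and associated genes tested, 1 fell. It was Tmem176a, a membrane protein gene that is itself no MHC molecule, with 36.2 and 39.4 CPM in AngII and 17.1 and 15.9 CPM in AngII+2W (log2 fold change -1.20, standard error 0.135, FDR = 0.035).

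Interferon-stimulated genes and NF-κB genes moved less. Over 80 interferon-stimulated genes the median log2 fold change was -0.293, with 0 genes past an FDR of 0.05, 2 lower genes below 0.1 and 27 lower and 0 higher genes at an unadjusted p below 0.05. Over 41 NF-κB genes it was -0.177, with 0 genes below an FDR of 0.1 and 8 lower and 0 higher genes at an unadjusted p below 0.05. The shares over all genes tested were 8.45% lower and 6.57% higher at that p. Immunoglobulin genes, which mark plasma cells, gave 0 of 75 genes past an FDR of 0.05. Their median log2 fold change was -1.28, with 65 lower and 10 higher genes, and it changed sign under alternatives. Their sum was 178 and 552 CPM in AngII and 170 and 163 CPM in AngII+2W, so that only replicate 2 of AngII stood well above the AngII+2W libraries. Ighg2b, a heavy chain constant gene, had 5.13 and 6.07 CPM in AngII, then 1.73 and 2.42 CPM in AngII+2W, and 0.0974 and 0.235 CPM in CTRL. The AngII+2W libraries thus lay between those of AngII and CTRL (log2 fold change against AngII -1.44, standard error 0.313, FDR = 0.0981).

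Several genes of the extracellular matrix fell. Tnn encodes tenascin-W, a matrix glycoprotein of developing and remodeling tissue, and lies on the reverse strand of chromosome 1 (160085029 to 160153580). Its level was 12 and 17 CPM in AngII and 0.0467 and 0 CPM in AngII+2W, where 1 count was found in both libraries together against 582 counts in AngII. The AngII+2W and CTRL libraries were all below the floor. The ratio of AngII to AngII+2W was 588 (exact 95% interval of counting error 105 to 23300, FDR = 0.0136). Fbn2, encoding fibrillin-2 of the microfibrils, had 19.9 and 26.5 CPM in AngII and 1.96 and 1.45 CPM in AngII+2W, against 1.51 and 1.36 CPM in CTRL, with no overlap between AngII and the other groups. Its log2 fold change was -3.76 (standard error 0.367, FDR = 0.029).

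Of 37 collagen chain genes tested, 2 fell and 0 rose. Col11a1, a chain of the fibrillar collagen XI that is best known from cartilage, had 37.7 and 68.4 CPM in AngII, then 3.69 and 2.47 CPM in AngII+2W, and 1.22 and 0.706 CPM in CTRL (log2 fold change -4.10, standard error 0.501, FDR = 0.0436). Col8a1, a chain of the short-chain collagen VIII that vascular cells secrete, had 273 and 231 CPM in AngII, then 49.1 and 30.2 CPM in AngII+2W, and 16.2 and 15.8 CPM in CTRL (log2 fold change -2.67, standard error 0.35, FDR = 0.0476). In both genes the AngII+2W libraries lay below AngII and above CTRL without overlap. Against CTRL, Col8a1 in AngII+2W had a log2 fold change of 1.31 at an unadjusted p of 0.00545, which did not pass the FDR threshold.

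The collagen list's median log2 fold change was -0.739 in AngII+2W against AngII, 0.792 in AngII against CTRL and 0.156 in AngII+2W against CTRL. Beside the 2 genes that fell, Col12a1 (236 and 360 CPM in AngII, then 75.7 and 53.7 CPM in AngII+2W, FDR = 0.064) and Col6a3 (1145 and 1182 CPM, then 463 and 403 CPM, FDR = 0.0682) were among the 6 lower genes with an FDR below 0.1. Collagen chains did not all have the same sign, as 22 were lower and 15 higher in AngII+2W, with 18 lower and 4 higher at an unadjusted p below 0.05. At that p, 8.45% of all genes tested were lower and 6.57% higher. Of the 31 genes of collagen processing, 29 were lower in AngII+2W and 0 passed an FDR of 0.05 (median -0.624). P4ha3, a subunit of prolyl 4-hydroxylase, had 9.66 and 12 CPM in AngII and 2.01 and 0.859 CPM in AngII+2W (FDR = 0.0655), and Loxl2, a collagen cross-linking enzyme, had 108 and 161 CPM and then 64 and 53.2 CPM (FDR = 0.0847).

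Of 58 other matrix protein genes, Tnn and Fbn2 fell and 0 rose, and 7 had an FDR below 0.1, all lower (median -0.518). Cthrc1, a secreted protein of activated fibroblasts, had 27.8 and 30.6 CPM in AngII, then 2.85 and 1.66 CPM in AngII+2W, and 0.585 and 0.706 CPM in CTRL (log2 fold change -3.68, standard error 0.517, FDR = 0.0574). Vcan, the large proteoglycan versican, had 225 and 163 CPM in AngII and 59.8 and 41.8 CPM in AngII+2W (FDR = 0.0692). Sned1, a further matrix glycoprotein gene, was chosen after its values were seen, because it passed, with 188 and 219 CPM in AngII and 91.8 and 73.1 CPM in AngII+2W (FDR = 0.0461). Matrix proteases and their inhibitors gave 0 of 35 genes past an FDR of 0.05 and 4 lower genes below 0.1. Among them, Adamts12, a secreted metalloprotease, had 109 and 131 CPM in AngII and 61.1 and 60.4 CPM in AngII+2W, above the 41.8 and 43.2 CPM of CTRL (FDR = 0.0519).

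Adam12, a membrane-anchored metalloprotease of mesenchymal cells, fell from 144 and 159 CPM to 58.1 and 53.1 CPM, which lay within the CTRL range of 46.8 to 58.3 CPM (log2 fold change -1.45, standard error 0.143, FDR = 0.029). Lrrc15, a membrane protein known from activated fibroblasts, fell from 10.6 and 10.3 CPM to 0.653 and 1.45 CPM, around the 1.02 and 1.27 CPM of CTRL (log2 fold change -3.32, standard error 0.359, FDR = 0.0296). Ppic, encoding the peptidyl-prolyl isomerase cyclophilin C of the secretory pathway, fell from 60.7 and 70.2 CPM to 26.2 and 22.9 CPM (FDR = 0.029). In each of these 3 genes the AngII and AngII+2W libraries were apart. Nnmt, which methylates nicotinamide, fell from 54.3 and 52.1 CPM to 17.2 and 12.5 CPM, and here both AngII+2W libraries lay below the 27.4 and 20.6 CPM of CTRL (log2 fold change against AngII -1.84, standard error 0.195, FDR = 0.029). Nav3, a microtubule-associated protein, fell from 51.9 and 50.8 CPM to 21 and 17.5 CPM (FDR = 0.029), with 17.8 and 19.5 CPM in CTRL. Chl1, a cell adhesion molecule of the L1 family, and Lhfpl2, a membrane protein, were chosen after their values were seen, because they passed, and had 47.8 and 63.2 CPM (Chl1) and 33.7 and 49.3 CPM (Lhfpl2) in AngII against 11.6 and 16.2 CPM and 13.8 and 13.5 CPM in AngII+2W (FDR = 0.0418 for both).

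The sum of 14 fibroblast markers overlapped between the groups, with 3506 and 4747 CPM in AngII and 4070 and 2655 CPM in AngII+2W, and their median log2 fold change was -0.327. Of these markers, 1 (Ly6a) had an FDR below 0.1 and 0 passed 0.05. Their part in the matrix genes was not tested.

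Cell cycle genes were lower as a group. Of the 91 tested, 83 were lower in AngII+2W than in AngII, 76 of them without overlap between the libraries and none higher without overlap. Without overlap, 27.5% of all genes tested were lower and 26.8% higher. At an FDR below 0.05, 3 fell and 0 rose, 21 lower and 0 higher genes had an FDR below 0.1, and 58 lower and 0 higher genes had an unadjusted p below 0.05. In that order, the shares over all genes tested were 0.14%, 1.37% and 8.45% lower and 0.0233%, 0.751% and 6.57% higher. The median log2 fold change was -0.879 in AngII+2W against AngII, 0.967 in AngII against CTRL and 0.15 in AngII+2W against CTRL. Mki67, the Ki-67 antigen of dividing cells, had 48.6 and 66.3 CPM in AngII and 14 and 13.6 CPM in AngII+2W, a little above the 11 and 12.3 CPM of CTRL (log2 fold change -2.05, standard error 0.211, FDR = 0.029). Top2a, the topoisomerase that untangles replicated chromosomes, fell from 26.6 and 36.3 CPM to 9.85 and 8.81 CPM (log2 fold change -1.75, standard error 0.23, FDR = 0.0476). Ccnd1, encoding cyclin D1 of the G1 phase, fell from 44.9 and 41.5 CPM to 15.9 and 17.5 CPM, and was then below the 19.1 and 25 CPM of CTRL (log2 fold change -1.37, standard error 0.168, FDR = 0.0436).

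Mitotic genes with lower counts had similar values. Ccna2 (cyclin A2) had 5.62 and 7.34 CPM in AngII and 1.54 and 1.72 CPM in AngII+2W, and Ccnb1 (cyclin B1) had 4 and 4.69 CPM and then 1.17 and 1.18 CPM. Kif11, the motor that separates the spindle poles, had 9.77 and 11.7 CPM and then 3.08 and 4.13 CPM. All 3 had an FDR of 0.0655. For 56 replication-dependent histone genes, which are expressed in S phase, the median log2 fold change was -1.13, with 11 lower and 0 higher genes at an FDR below 0.1. H3c2 had 5.99 and 8.58 CPM in AngII, then 2.43 and 1.83 CPM in AngII+2W, and 1.8 and 1.51 CPM in CTRL (FDR = 0.0655). The list passed in 1 gene, Hist1h2br, whose AngII libraries overlapped CTRL.

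Promoters of genes that peak in mitosis often hold CCAAT boxes, bound by NF-Y, and the CHR element, bound by complexes that repress these genes in resting cells. The full windows of 250 bases before the RefSeq start (GRCm38.p6) were searched on both strands for the letters CCAAT, for TTTGAA as the CHR element, for TATAAA and for the CArG box. Of the 91 cell cycle genes, 70 had an entry, and 50 of these (71.4%) held CCAAT and 19 (27.1%) held TTTGAA, against 37.5% and 18.3% of all 27025 genes with an entry. Both were held by 16 (22.9%), against 6.45% of all genes. Of 44 histone genes with an entry, 35 (79.5%) held CCAAT and 17 (38.6%) held both, and 18 (40.9%) held TATAAA, against 14.3% of all genes. These shares describe letters in a window and were not used to draw anything about the factors. The windows of Mki67 (chr7:135716380-135716629, reverse strand), Top2a (chr11:99024190-99024439, reverse strand) and Kif11 (chr19:37376132-37376381, forward strand) are shown 5′ to 3′ along each gene, as examples that hold both letters and were chosen for this after the windows were seen. Mki67 and Top2a fell, and Kif11 did not pass. The window of Ccnb1, cut to 166 bases before the annotated start of the gene, held 1 CCAAT and 0 TTTGAA. Capitals mark CCAAT and TTTGAA in either orientation, with 3 and 2 matches in Mki67, 6 and 2 in Top2a, and 1 and 1 in Kif11.
Mki67: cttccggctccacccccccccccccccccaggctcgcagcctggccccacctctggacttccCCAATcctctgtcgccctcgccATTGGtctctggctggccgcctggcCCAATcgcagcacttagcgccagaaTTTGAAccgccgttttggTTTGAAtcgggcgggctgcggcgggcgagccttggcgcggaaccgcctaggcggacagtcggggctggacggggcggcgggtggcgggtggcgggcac
Top2a: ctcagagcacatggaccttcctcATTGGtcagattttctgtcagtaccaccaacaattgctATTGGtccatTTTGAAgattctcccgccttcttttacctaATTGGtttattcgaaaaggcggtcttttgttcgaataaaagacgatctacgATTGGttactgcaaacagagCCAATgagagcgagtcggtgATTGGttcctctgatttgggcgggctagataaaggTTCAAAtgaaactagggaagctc
Kif11: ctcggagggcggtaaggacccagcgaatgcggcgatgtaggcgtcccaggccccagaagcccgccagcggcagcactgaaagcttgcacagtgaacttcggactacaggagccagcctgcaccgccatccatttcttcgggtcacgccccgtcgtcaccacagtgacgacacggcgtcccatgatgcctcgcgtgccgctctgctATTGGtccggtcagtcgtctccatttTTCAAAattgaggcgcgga

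**Figure D3:**
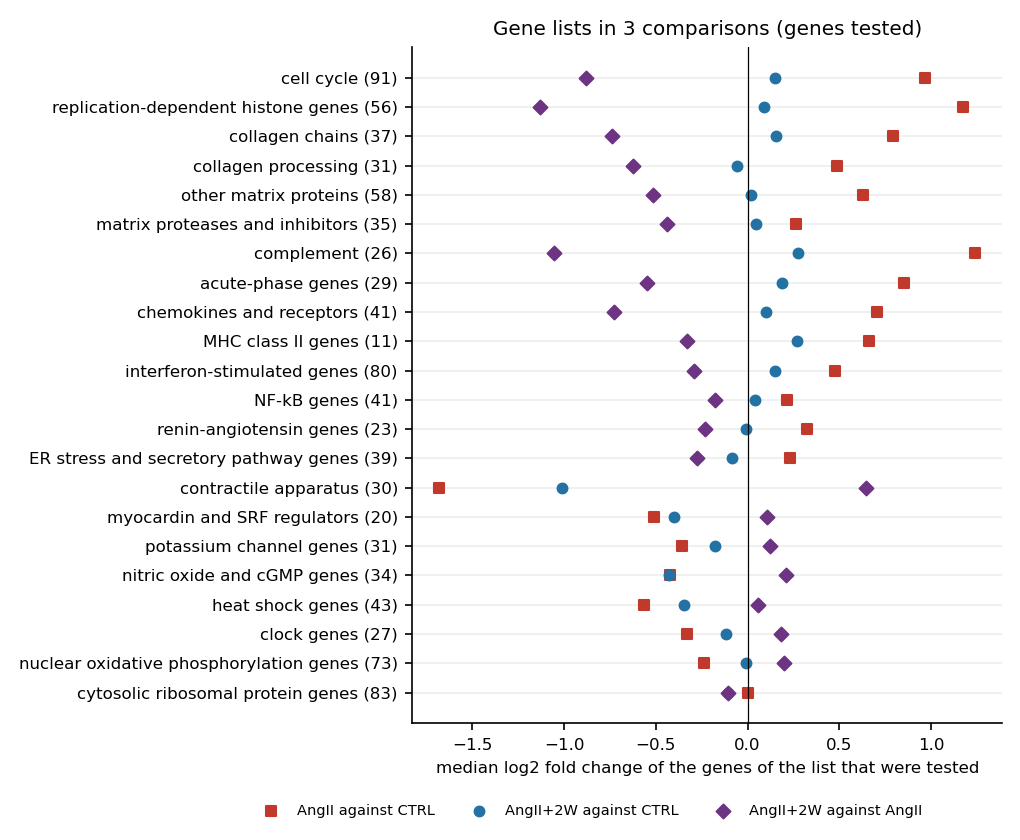
Median log2 fold change over the tested genes of 22 gene lists (number of genes in parentheses), for AngII against CTRL (red squares), AngII+2W against CTRL (blue circles) and AngII+2W against AngII (purple diamonds); the comparisons share libraries. For cell cycle genes the medians are 0.967, 0.15 and -0.879, while for contractile genes the AngII+2W median against CTRL stays at -1.01.

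Most contractile genes of smooth muscle had higher levels in AngII+2W than in AngII and lower levels than in CTRL, without passing the FDR threshold in either comparison. Of the 30 genes of the contractile apparatus, 27 were higher in AngII+2W, 25 of them without overlap between the libraries. Among all genes tested, 26.8% were higher and 27.5% lower without overlap. None passed an FDR of 0.05, 4 higher and 0 lower genes had an FDR below 0.1, and 16 higher and 0 lower genes an unadjusted p below 0.05. All genes tested gave 0.751% higher and 1.37% lower at that FDR, and 6.57% higher and 8.45% lower at that p. The median log2 fold change was 0.644 against AngII. It was -1.68 in AngII against CTRL, with 22 of the 30 genes lower at an FDR below 0.05 (2.2% of all genes tested). In AngII+2W against CTRL it was -1.01, with 28 lower and 0 higher genes at an unadjusted p below 0.05. In this last comparison, 6.18% of all genes tested were lower and 4.52% higher at that p.

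Acta2, which encodes the smooth muscle α-actin and lies on the reverse strand of chromosome 19 (34241090 to 34255590), had 506 and 664 CPM in AngII, then 1184 and 895 CPM in AngII+2W, and 3057 and 2246 CPM in CTRL. The AngII+2W libraries were above both AngII libraries and below both CTRL libraries. They stood at 44.7% and 33.7% of the CTRL mean, against 19.1% and 25% in AngII. The log2 fold change against AngII was 0.83 (standard error 0.29, FDR = 0.236), which did not pass the threshold. Myh11, the smooth muscle myosin heavy chain, had 619 and 804 CPM in AngII and 1529 and 1535 CPM in AngII+2W (44.7% and 44.9% of the CTRL mean, FDR = 0.186). Tagln, the actin-binding protein SM22, had 198 and 223 CPM and then 489 and 394 CPM (FDR = 0.132).

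The smallest FDR values of the list belonged to 4 other genes. Synpo2, an actin-bundling protein of the Z-disc and dense bodies, had 166 and 171 CPM in AngII and 396 and 402 CPM in AngII+2W, 52.7% and 53.5% of the CTRL mean (log2 fold change 1.24, standard error 0.199, FDR = 0.0655). Itga8, the integrin α8 chain of contractile smooth muscle, had 237 and 262 CPM in AngII and 737 and 634 CPM in AngII+2W (log2 fold change 1.46, standard error 0.28, FDR = 0.0752). Myl9, the regulatory myosin light chain, had 123 and 128 CPM in AngII and 263 and 238 CPM in AngII+2W, 49.7% and 45% of the CTRL mean (FDR = 0.0802). In each of these genes the AngII+2W libraries stood clear of both AngII and CTRL. Kcnmb1, the smooth muscle subunit of the large-conductance calcium-activated potassium channel, had 14 and 16.3 CPM in AngII, then 42.7 and 29.4 CPM in AngII+2W, and 66.7 and 51.8 CPM in CTRL (FDR = 0.0814).

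Myocd, encoding myocardin, had 27.9 and 33.8 CPM in AngII, then 61.9 and 55.4 CPM in AngII+2W, and 203 and 94.1 CPM in CTRL (log2 fold change against AngII 0.93, standard error 0.342, FDR = 0.254). Its AngII+2W libraries stood at 41.6% and 37.3% of the CTRL mean. The list of 20 myocardin and SRF regulators that holds it had a median of 0.107, with 12 genes higher and 8 lower, and 0 genes below an FDR of 0.1. The sum of 10 smooth muscle markers, given above for each library, includes Acta2, Myh11, Tagln, Synpo2 and Myocd. It is therefore no separate measure of smooth muscle content. The part of smooth muscle RNA in the change of the contractile genes was not tested. A CArG box was found in the window before the start of 4 of the 26 contractile genes with a RefSeq entry (15.4%), against 1.62% of all genes with an entry. The 206 bases before the annotated start of Myl9 (chr2:156775214-156775419, forward strand), to which its window was cut for display only, are shown with its CArG box in capitals, because Myl9 is the one of the 4 genes above with a CArG box in its window.
Myl9: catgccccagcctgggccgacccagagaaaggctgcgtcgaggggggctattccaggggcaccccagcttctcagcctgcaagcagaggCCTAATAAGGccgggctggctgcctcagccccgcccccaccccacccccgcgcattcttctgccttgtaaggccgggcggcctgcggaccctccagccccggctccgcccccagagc

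**Figure D4:**
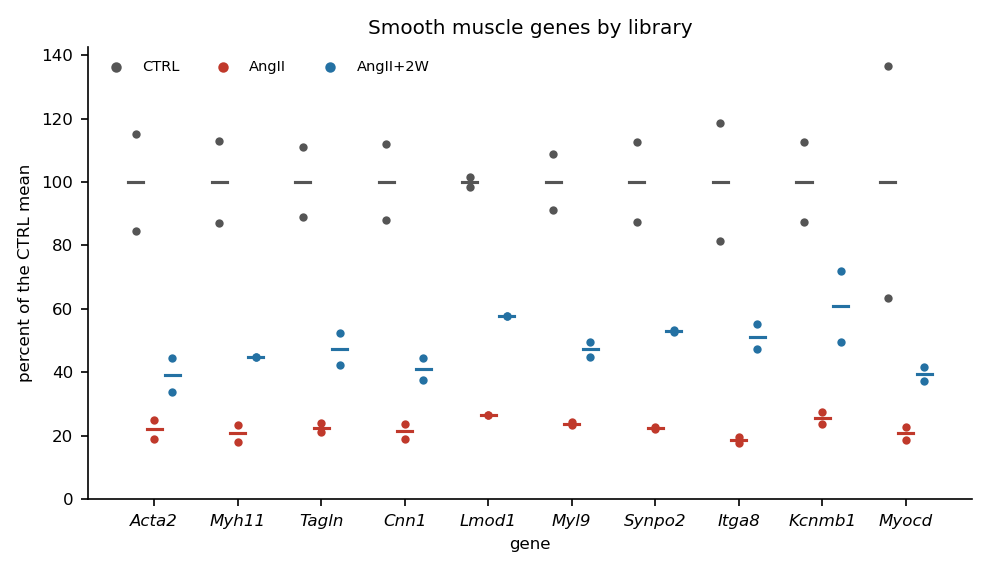
Levels of 10 smooth muscle genes in percent of the CTRL mean (y axis), with 1 point for each CTRL, AngII and AngII+2W library and a line at the mean of the 2 libraries. For Acta2 the AngII libraries sit at 19.1% and 25% and the AngII+2W libraries at 44.7% and 33.7%, and in all 10 genes the order is AngII, AngII+2W, CTRL without overlap.

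Genes of the membrane and of vasodilator signaling in smooth muscle gave 2 of the 4 genes that rose. Ramp1, the accessory protein that turns the calcitonin receptor-like receptor into the receptor of the vasodilator CGRP, lies on the forward strand of chromosome 1 (91179822 to 91225196). It rose from 4.64 and 5.17 CPM in AngII to 15.4 and 12.9 CPM in AngII+2W, against 21.4 and 20.2 CPM in CTRL. The AngII+2W libraries were above AngII and below CTRL without overlap (log2 fold change against AngII 1.53, standard error 0.167, FDR = 0.0296, a 2.89-fold higher level). Ramp1 was the only one of 6 CGRP and adrenomedullin genes tested to pass. Ano1, the calcium-activated chloride channel of smooth muscle, rose from 63 and 62.3 CPM to 140 and 176 CPM, which overlapped the 129 and 162 CPM of CTRL (log2 fold change 1.33, standard error 0.175, FDR = 0.0476).

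Of the 31 potassium channel genes, 0 passed an FDR of 0.05 and 5 higher and 0 lower genes had an FDR below 0.1. Kcnab1, a β subunit of voltage-gated channels, had 13.2 and 13.9 CPM in AngII, then 35.4 and 33.6 CPM in AngII+2W, and 89.9 and 62.5 CPM in CTRL (FDR = 0.0655). Kcnc4, a voltage-gated channel, had 1.35 and 2.04 CPM in AngII, then 4.15 and 6.23 CPM in AngII+2W, and 19 and 14.6 CPM in CTRL (FDR = 0.0723). Kcna2 had 15.6 and 16.4 CPM in AngII and 24.5 and 28.1 CPM in AngII+2W (FDR = 0.0655). In all 3 genes AngII+2W lay between AngII and CTRL. Among 34 genes of nitric oxide and cGMP signaling, 1 fell and 0 rose, with a median log2 fold change of 0.21 against AngII. In AngII+2W against CTRL the median was -0.428, and 15 lower and 1 higher genes had an unadjusted p below 0.05. The shares over all genes tested were 6.18% lower and 4.52% higher at that p. The gene that fell was Ddah1, which degrades an endogenous inhibitor of nitric oxide synthases, from 25.9 and 14.4 CPM to 1.49 and 3.06 CPM (log2 fold change -3.15, standard error 0.411, FDR = 0.0476). Gucy1b1, the β1 subunit of the nitric oxide receptor guanylate cyclase, had 22.6 and 22.9 CPM in AngII, then 34.8 and 35.1 CPM in AngII+2W, and 79.3 and 57.1 CPM in CTRL (FDR = 0.15).

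The study names 32 of the genes tested, some of them for their change in these libraries and others as stained proteins or from earlier work, so that the direction of the list is not independent evidence. Of these, 1 fell (Mki67), 0 rose, and 4 higher and 3 lower genes had an FDR below 0.1 in AngII+2W against AngII. Hspb1, a small heat shock protein, had 54.2 and 48.4 CPM in AngII, then 66.1 and 76.1 CPM in AngII+2W, and 153 and 146 CPM in CTRL. Its AngII+2W libraries were above AngII and stood well below CTRL (log2 fold change against AngII 0.47, FDR = 0.16, and against CTRL -1.07 at an unadjusted p of 4.98e-05). Lancl3, a protein of the lanthionine synthetase family, had 3.56 and 3.32 CPM, then 10.4 and 7.84 CPM, and 26.3 and 16.2 CPM in CTRL (FDR = 0.0847). Xk, a membrane protein, had 7.83 and 7.25 CPM, then 15.7 and 13.1 CPM, and 33.9 and 23.1 CPM in CTRL (FDR = 0.105). Heat shock genes as a list (43 tested) had a median of 0.057 against AngII, with 0 genes below an FDR of 0.1. Against CTRL the AngII+2W median was -0.349, with 22 lower and 0 higher genes at an unadjusted p below 0.05. All genes tested gave 6.18% lower and 4.52% higher at that p.

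In the renin-angiotensin list 0 of 23 genes passed an FDR of 0.05 (median -0.233). Agtr2, the type 2 receptor of angiotensin II, was listed at 1.57 and 1.47 CPM in AngII, then 0.187 and 0 CPM in AngII+2W, and 0 CPM in both CTRL libraries, with an FDR of 0.112 between AngII+2W and AngII. Prcp, a peptidase that cleaves angiotensin II, had 40.4 and 52.6 CPM in AngII and 25.9 and 23.7 CPM in AngII+2W (FDR = 0.0655). Agt, the precursor angiotensinogen, had 5.56 and 8.39 CPM and then 2.24 and 2.09 CPM (FDR = 0.219).

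The other 2 genes that rose belong to neurons. Dbh encodes dopamine β-hydroxylase, which makes noradrenaline, and Syt1 encodes the calcium sensor of synaptic vesicles. Dbh had 0 counts in both AngII libraries and 114 and 315 counts (5.32 and 16.9 CPM) in AngII+2W, at least 141-fold higher (FDR = 0.0436). Syt1 had 2 and 0 counts in AngII and 109 and 283 counts (5.09 and 15.2 CPM) in AngII+2W, a ratio of 194 (exact 95% interval of counting error 53.3 to 1610, FDR = 0.0418). In CTRL and AngII+3W both genes had between 0.146 and 0.591 CPM in every library, so that high levels were found in the 2 AngII+2W libraries and in no other.

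Further genes of sympathetic neurons had higher values in AngII+2W. Th, the first enzyme of catecholamine synthesis, had 0.27 and 0.332 CPM in AngII and 2.01 and 7.25 CPM in AngII+2W (FDR = 0.0776), and Snap25, a protein of synaptic vesicle fusion, 0.864 and 0.616 CPM and then 3.17 and 6.44 CPM (FDR = 0.0655). Scn9a, a neuronal sodium channel, had 0.216 and 0.237 CPM and then 2.1 and 4.24 CPM (FDR = 0.0546). Slc6a2, the noradrenaline transporter, and Prph, the neuronal filament peripherin, were chosen after their values were seen. Slc6a2 had 5.72 and 5.26 CPM in AngII, then 19 and 47.8 CPM in AngII+2W, and 5.51 and 2.87 CPM in CTRL (FDR = 0.0674), and Prph had 0.216 and 0 CPM, then 2.66 and 6.01 CPM (FDR = 0.0682). In each of these genes replicate 2 of AngII+2W was higher than replicate 1. The list of 14 Schwann cell and neuron markers summed to 182 and 177 CPM in AngII, then 211 and 231 CPM in AngII+2W, and 223 and 185 CPM in CTRL. Of it, 1 gene rose (Dbh), 4 higher and 0 lower genes had an FDR below 0.1, and Dbh was the marker at 0 in AngII. The list had a median log2 fold change of 0.797, with 10 higher and 0 lower genes at an unadjusted p below 0.05. Of all genes tested, 6.57% were higher and 8.45% lower at that p. Mbp, a Schwann cell gene, was among the 10. None of the Schwann cell genes of the list, which mark the sheath of nerve fibers, had an FDR below 0.1. The part of neuron RNA in the levels of Dbh and Syt1 was not tested.

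**Figure D5:**
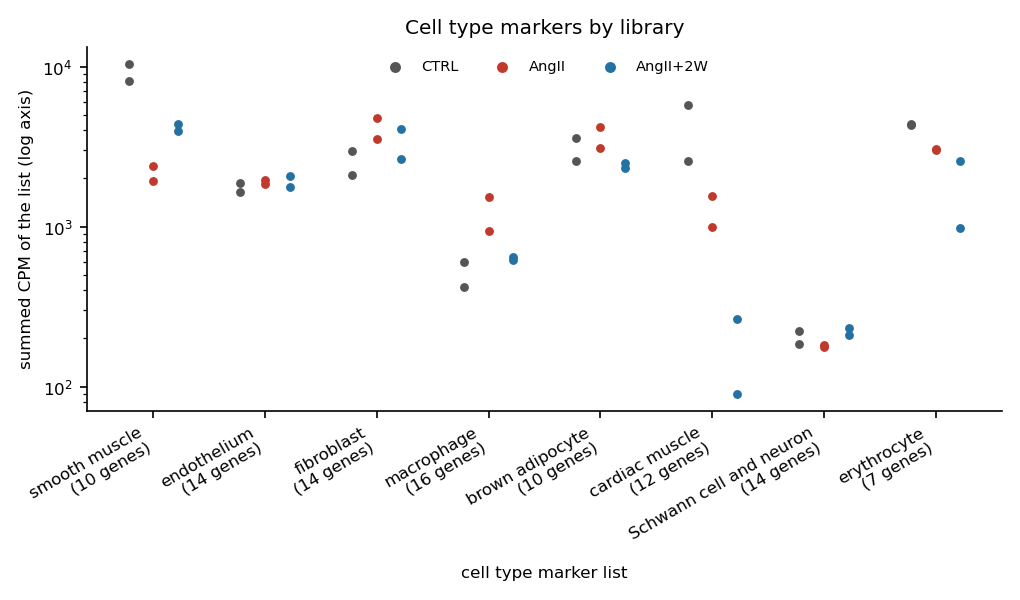
Summed CPM of 8 cell type marker lists (log axis), with 1 point for each CTRL, AngII and AngII+2W library and the number of genes tested in parentheses. Smooth muscle markers sum to 4352 and 3979 CPM in AngII+2W, between AngII and CTRL, macrophage markers to 649 and 615 CPM, close to CTRL, and cardiac muscle markers to 263 and 89.6 CPM, the lowest of these groups.

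Of the remaining genes among the 12 higher genes with the smallest p, none passed an FDR of 0.05 (0.0577 to 0.0655). Ntrk3, a neurotrophin receptor that is also expressed in the vessel wall, had 230 and 179 CPM in AngII and 473 and 537 CPM in AngII+2W, around the 415 and 525 CPM of CTRL (log2 fold change 1.31, standard error 0.187, FDR = 0.059). Spint2, an inhibitor of serine proteases, had 7.45 and 6.78 CPM, then 14.1 and 14.3 CPM, with 18.7 and 18.3 CPM in CTRL. Aknad1 had 2.27 and 2.56 CPM, then 6.77 and 6.01 CPM, with 8.72 and 8.14 CPM in CTRL. The AngII+2W libraries of Rnf144b (79.5 and 92 CPM), Rab6b (61.7 and 69.2 CPM), H2-Q10 (53.6 and 50.4 CPM) and Ppl (26.3 and 23 CPM) were above both AngII and both CTRL libraries.

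Some values did not follow the pattern of a change in AngII that was smaller 2 weeks later. Hist1h2br, a histone H2B gene, had 3.26 and 2.82 CPM in CTRL, 2.75 and 4.79 CPM in AngII, and 0.327 and 0.43 CPM in AngII+2W, so that CTRL and AngII overlapped and AngII+2W lay below both (log2 fold change against AngII -3.31, standard error 0.435, FDR = 0.0476). Its transcript is 99.8% identical to Hist1h2bq over 91.1% of its length, and the way the estimated counts were divided between the 2 genes makes its value uncertain. Tmem120a and Ccl21d were chosen after their values were seen, because they passed. Tmem120a, a membrane protein, had 37.6 and 40.1 CPM in CTRL, 44.4 and 48.1 CPM in AngII, and 26 and 23 CPM in AngII+2W (log2 fold change against AngII -0.91, standard error 0.12, FDR = 0.0476). Ccl21d, a chemokine gene of lymphatic vessels, had 83 and 158 counts in AngII and 0 in both AngII+2W libraries, at least 81.2-fold lower (FDR = 0.0452). Its transcript is 99.3% identical to Ccl21a and 100% identical to Gm13304 over 96.2% of its length. Summed over the 6 Ccl21 identifiers, AngII held 320 and 771 counts and AngII+2W held 265 and 220, so that the fall to 0 of Ccl21d was not seen in the family.

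Cardiac muscle genes differed between the groups and also between the 2 libraries of a group. The 12 cardiac markers summed to 1561 and 990 CPM in AngII, then 263 and 89.6 CPM in AngII+2W, and 5743 and 2565 CPM in CTRL, and in AngII+3W to 6538 and 507 CPM. None passed an FDR of 0.05 in AngII+2W against AngII, and the median log2 fold change was -3.35. At an unadjusted p below 0.05, 6 of the 12 were lower, against 8.45% of all genes tested. Actc1, the cardiac α-actin, had 190 and 100 CPM in AngII and 13.7 and 1.99 CPM in AngII+2W (FDR = 0.199). The part of cardiac RNA in the other results was not tested. The 7 erythrocyte markers summed to 3029 and 3069 CPM in AngII and 981 and 2560 CPM in AngII+2W, with 0 genes past an FDR of 0.05.

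Compared with CTRL, 0 genes differed in AngII+2W at an FDR below 0.05 (0% of the genes tested) by edgeR's quasi-likelihood test, with a smallest FDR of 0.174, while 777 higher and 1061 lower genes had an unadjusted p below 0.05. In this comparison 373 genes passed with DESeq2, and 420 with the likelihood ratio test of edgeR. Of the 28 genes that differed between AngII+2W and AngII, 9 were above and 6 below CTRL at an unadjusted p below 0.05, and 13 were not past it, which does not show that they had returned to the CTRL level. Both comparisons use the AngII+2W libraries, so that these counts are no separate evidence. Those above CTRL include Serpina3n, Col8a1, Col11a1 and Tmem176a, with log2 fold changes of 0.61, 1.31, 1.68 and 0.49, and those below include Ramp1, Nnmt and Ccnd1, with -0.55, -0.69 and -0.41. Dbh and Syt1 were also above, and Ccl21d, Hist1h2br and Tmem120a also below. The latter 5 genes had not passed in AngII against CTRL.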

How the data were processed

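RNA of mouse aorta was sequenced after depletion of ribosomal RNA, with 8 libraries on a single lane and 2 libraries in each of CTRL, AngII, AngII+2W and AngII+3W. The authors quantified the reads with Salmon on Ensembl GRCm38 transcripts and deposited expected counts per gene as whole numbers, with FastQC, MultiQC and edgeR also named per the labels. Every column matched a sample. Salmon divides reads among similar transcripts, which affects near-identical genes, and the length offsets of the quantification were not used here.

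Genes were filtered with filterByExpr (minimum count 10), normalized by TMM and fitted in edgeR 4.0.16 (R 4.3.3) with a quasi-likelihood model of all 8 libraries and 4 residual degrees of freedom. The biological coefficient of variation was 0.202. P-values were adjusted by Benjamini-Hochberg over all 17182 genes, and a gene passed at an FDR below 0.05. Standard errors were derived from the log2 fold change and its F statistic. Libraries held 18130441 to 21498200 counts, and intervals and floors cover counting error only. Replicate libraries of a group differed by more than sampling noise (chi-square per degree of freedom 13 to 91). P-values measure the spread between libraries of pooled mice. The script was tested on simulated data.

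The members and the gene lists were chosen with earlier results of these data known. The text names from the genes of smallest p whose libraries do not overlap (12 higher, 12 lower), up to 6 genes with the smallest p of each list, and genes named by the study. Any other gene is said to be chosen after its values were seen. Lists are described by counts and medians. Setting genes with 0 counts in a group to their bound moved no list median. Alternatives were DESeq2 1.42.0, limma-voom (limma 3.58.1), other normalizations, filters and tests, a replicate block and leaving out each library. Gene copies were sought with BLAST 2.17.0, and promoter windows came from RefSeq (GRCm38.p6). Positions are those of GENCODE for GRCm38, which held 98.9% of the identifiers.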

Additional observations from a re-analysis of the deposited data

How the results depend on the processing

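The number of genes past an FDR of 0.05 between AngII+2W and AngII (28) was 29 with DESeq2 size factors, 25 with at least 10 counts in every library, and 28 with at least 100 counts in a group, which was chosen after seeing the data. It was 18 without TMM, 242 with a filter of at least 1 count, 685 with DESeq2, 766 with the likelihood ratio test, 15 with limma-voom, 884 with only the 2 groups in the fit and 365 at an FDR below 0.1. Leaving out each library gave 0 to 262 genes. With a replicate block 26 genes passed, 17 of them shared with the 28. The correlation of deviations between same-numbered libraries was 0.0123 for AngII and AngII+2W over 10434 genes and -0.0122 to 0.544 over the 6 pairs of groups (AngII and AngII+3W 0.544, CTRL and AngII+2W 0.388). The numbers were not taken to pair the samples, since not every pair exceeded 0.1 and the labels tie them to nothing shared. Between AngII and CTRL (877 genes) DESeq2 gave 1588, the likelihood ratio test 1711 and leaving out each library 0 to 1504. Between AngII+2W and CTRL (0 genes) the filter of at least 1 count gave 5, DESeq2 373, the likelihood ratio test 420 and leaving out each library 0 to 275. The cause of these differences was not tested. No named gene changed sign under these alternatives. The medians of 14 lists did, among them immunoglobulin genes (-1.77 to 0.266), potassium channel genes (-0.0154 to 0.164) and endothelial markers (-0.101 to 0.096), while that of contractile genes ranged from 0.524 to 0.757 and that of cell cycle genes from -0.965 to -0.709.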

Other observations

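Of 10 markers of brown adipocytes, which surround the thoracic aorta, 6 were lower and 4 higher in AngII+2W than in AngII, with a median log2 fold change of -0.269 and 0 past an FDR of 0.05. The 2 with the smallest FDR were Ucp1 and Dio2. Ucp1, the uncoupling protein of brown fat, had 1879 and 1333 CPM in AngII, then 409 and 455 CPM in AngII+2W, and 761 and 1117 CPM in CTRL (quasi-likelihood test of edgeR, Benjamini-Hochberg adjusted, FDR = 0.0674). Dio2, which activates thyroid hormone, had 250 and 192 CPM, then 42.5 and 21.8 CPM, and 205 and 79.3 CPM in CTRL (FDR = 0.0655). In both genes AngII+2W lay below both other groups. The sum over the list, to which Ucp1 contributes a large part, was 4182 and 3109 CPM in AngII and 2308 and 2504 CPM in AngII+2W.

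Wnt genes (24 higher, 18 lower), growth factors (21 and 22) and lipogenic and sterol genes (20 and 16) went both ways in AngII+2W against AngII. At an unadjusted p below 0.05 they gave 7 higher and 4 lower, 4 and 6, and 4 and 7 genes in turn. Among their higher genes, Lgr6, an R-spondin receptor, had 68.1 and 58.8 CPM in AngII, then 117 and 122 CPM in AngII+2W, and 256 and 225 CPM in CTRL (FDR = 0.0655). Pdgfd, a platelet-derived growth factor, had 28.6 and 30 CPM, then 54.7 and 58.1 CPM, and 73.4 and 56.5 CPM in CTRL (FDR = 0.0655). Fdft1, the squalene synthase of sterol synthesis, had 72 and 63 CPM, then 165 and 185 CPM, and 85.6 and 138 CPM in CTRL, so that AngII+2W lay above both groups (FDR = 0.0655). Of the 27 clock genes 22 were higher in AngII+2W and 0 passed an FDR of 0.05, and of the 73 nuclear oxidative phosphorylation genes 64 were higher and 0 passed. Of the 83 cytosolic ribosomal protein genes 72 were lower and 0 passed, with a median log2 fold change of -0.107. At an unadjusted p below 0.05 there were 9 higher and 0 lower clock genes, 6 higher and 1 lower oxidative phosphorylation genes, and 0 higher and 3 lower ribosomal protein genes. Of all genes tested, 49.6% were higher in AngII+2W, and 6.57% were higher and 8.45% lower at that p. The oxidative phosphorylation and ribosomal protein genes were near or below these shares at that p.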
